A study of Mus musculus with 5 samples.

Results

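The 10 chemokine genes described here, Ccl1, Ccl3, Ccl4, Ccl5, Ccl6, Ccl17, Ccl22, Xcl1, Cxcl2 and Cxcl10, code for chemokines that stimulated lymphocytes are known or supposed to secrete. They were taken by name from the 19938 genes of an array study of natural helper cells from mouse lung (5 arrays), and each was represented by the only probe set that the platform annotation gives to it alone. In the stimulated group, sorted cells had been cultured for 3 days, in 200 microlitres, with PMA at 60 ng/ml and ionomycin at 500 ng/ml (2 arrays). PMA is a phorbol ester that switches on protein kinase C, and ionomycin lets calcium into the cell. In the unstimulated group, RNA was taken from the cells directly after flow cytometry, with no culture and no agent (3 arrays). All cells came from lungs of untreated C57Bl/6 mice of 6 to 8 weeks, gated as negative for lineage markers, positive for Sca-1, CD127 and CD25, and low or negative for c-Kit. The sex of the mice and any pooling of animals are not given, and no cells were cultured without the 2 agents, so time in culture and stimulation cannot be told apart. Xist, the RNA of the inactive X chromosome, averaged 4.13 ± 0.04 with PMA and ionomycin and 9.65 ± 0.56 on the unstimulated arrays (SD, n = 2 and 3), so a difference in the sex of the mice cannot be told apart from these either.

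Chemokines are small secreted proteins that draw leukocytes along a gradient by binding G protein-coupled receptors. They are sorted by the spacing of their first cysteines into the CC, CXC, C and CX3C classes, and one receptor often takes several ligands. Natural helper cells, now usually called group 2 innate lymphoid cells, lack antigen receptors and are known for type 2 cytokines. PMA and ionomycin bypass surface receptors and are known to activate the transcription factors AP-1, NF-kB and NFAT, which control many cytokine and chemokine genes in lymphocytes.

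The arrays held 35556 probe sets each, with log2 medians of 5.63 to 5.66. Pearson correlations across probe sets, which are no replicates, were 0.989 within the stimulated group, 0.980 to 0.988 within the unstimulated group and 0.956 to 0.969 between groups. The transcripts of Gata3, Il7r, Il2ra, Rora and Id2, which mark these innate lymphocytes, read between 9.76 and 10.9 on the stimulated arrays and between 10.5 and 11.0 on the unstimulated ones, while Il1rl1 had no probe set of its own. Of 11 measured genes of that marker list, 4 fell and none rose, and 7 lay wholly below on the stimulated arrays and 3 wholly above. Over all genes, limma called 0.963% lower and 0.737% higher, and 14.0% lay wholly below and 18.6% wholly above. Il7r, Rora and Id2 fell by 0.77, 0.81 and 0.78 log2 units. Kit, the gene of the sort marker c-Kit, read 7.12 and 6.84 with PMA and ionomycin and 9.88, 9.97 and 9.69 on the unstimulated arrays, and fell by 2.86. Thy1 (-1.34) and Klrg1 (-1.27) were not called, nor were the type 2 cytokine genes Il13 (2.41) and Il5 (0.71). In bulk samples such as these, fewer cells of a type and less RNA per cell cannot be told apart. The labels do not say that arrays of one group stand for separate animals or cultures, and p-values therefore cover only the spread between these arrays, which may be a technical one.

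Ccl4 rose, and it was the only 1 of the 10 genes that passed the test, while no gene of the 10 passed in the lower direction. The test was limma with Benjamini-Hochberg adjustment over all genes, at a threshold of 0.05, which called 0.737% of all genes higher and 0.963% lower, 1.70% in all. An unadjusted p under 0.05 was found for 8 of the 10 genes and for 3973 of all genes. The other values went far apart: Ccl3 stood 13.4-fold and Xcl1 5.46-fold higher with PMA and ionomycin. Cxcl10 stood 7.92-fold, Ccl5 4.39-fold and Ccl6 3.56-fold lower. Ccl3 on unstimulated array 3 (5.26) read about the array medians, as did Ccl6 (5.35 and 5.51) and Cxcl10 (5.83 and 5.48) on the stimulated arrays. Such signals cannot be told from background here, so the folds of Ccl3, Ccl6 and Cxcl10 may depend on it. In 4 genes (Ccl1, Ccl3, Ccl4 and Xcl1) both stimulated arrays lay above all unstimulated ones, and in 4 (Ccl5, Ccl6, Cxcl2 and Cxcl10) both lay below. Among all genes 18.6% lay wholly above and 14.0% wholly below, or 32.5% with no overlap. For Ccl17 and Ccl22 the groups overlapped. A difference of 1 log2 unit or more was seen upward in 3 of the 10 genes and downward in 3, against 2.23% and 2.73% of all genes. The median difference was -0.04 over the 10 genes and 0.00 over all genes.

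**Figure D1:**
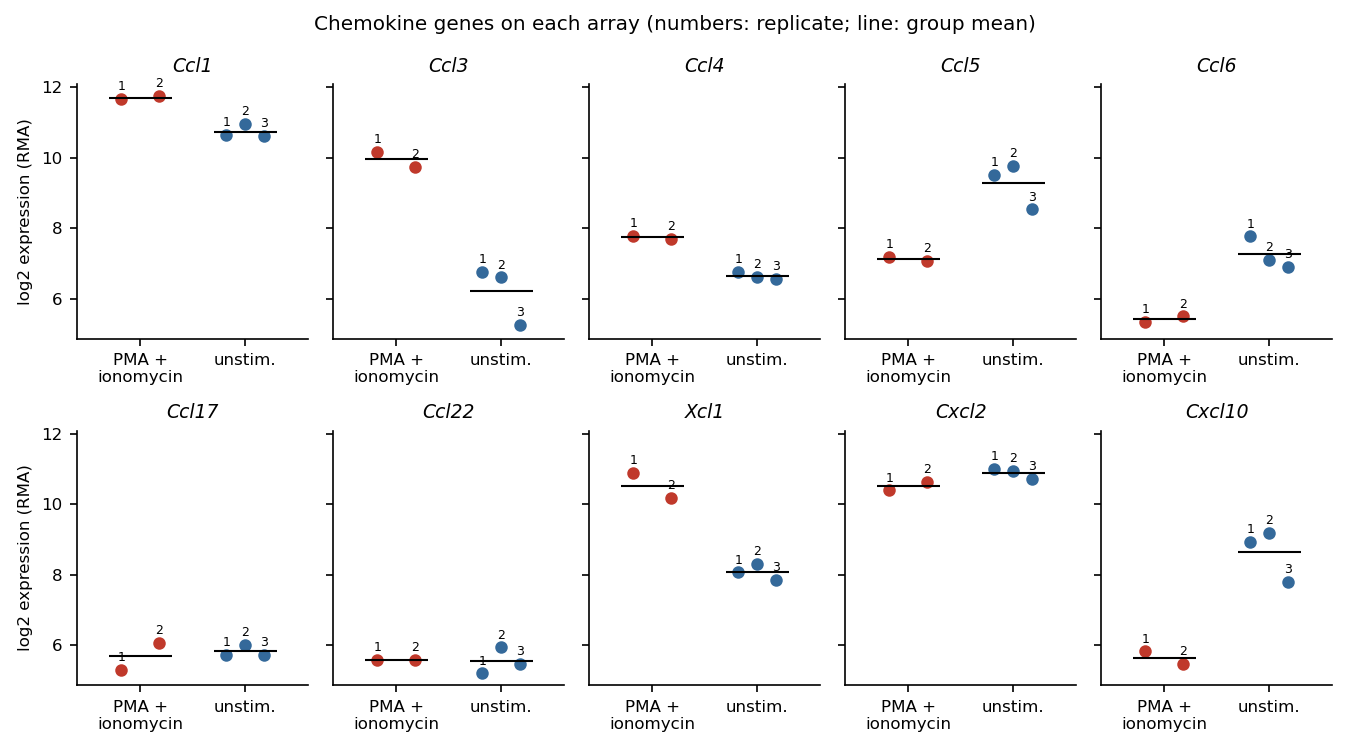
Log2 expression (vertical axis) of the 10 chemokine genes on each array, with PMA and ionomycin (red, 2 arrays) to the left of unstimulated cells (blue, 3 arrays); digits are replicate numbers and lines are group means. Ccl3 sits at 10.2 and 9.74 in the red group and at 5.26 to 6.78 in the blue one, Cxcl10 shows the opposite order, and Ccl17 and Ccl22 overlap.

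The upstream sequences of 4 genes are shown because these genes span the range of values: Ccl3 and Xcl1 were the furthest above the unstimulated arrays, Cxcl10 the furthest below, and Cxcl2 differed little. Each runs 5′ to 3′ on the gene's own strand, with 250 bases before and 50 bases after the start site, from RefSeq on build GRCm38.p6. The table of RefSeq promoters used here matched 8 of the 10 genes, all but Ccl4 and Ccl5. Capitals mark matches on either strand to 4 motifs: the NF-kB consensus, the AP-1 site TGACTCA, the interferon response motif, which is 2 copies of GAAA with 2 bases of any kind between them, and the NFAT core GGAAA. The windows lie at chr11:83649329-83649628 on the minus strand for Ccl3, chr1:164935473-164935772 on the minus strand for Xcl1, chr5:90903649-90903948 on the plus strand for Cxcl2 and chr5:92348840-92349139 on the minus strand for Cxcl10.
Ccl3: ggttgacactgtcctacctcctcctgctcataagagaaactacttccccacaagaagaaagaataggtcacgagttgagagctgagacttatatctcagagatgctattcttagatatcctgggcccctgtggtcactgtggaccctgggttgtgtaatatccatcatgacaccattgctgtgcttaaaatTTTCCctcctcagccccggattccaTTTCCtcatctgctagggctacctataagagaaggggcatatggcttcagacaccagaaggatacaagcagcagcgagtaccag
Xcl1: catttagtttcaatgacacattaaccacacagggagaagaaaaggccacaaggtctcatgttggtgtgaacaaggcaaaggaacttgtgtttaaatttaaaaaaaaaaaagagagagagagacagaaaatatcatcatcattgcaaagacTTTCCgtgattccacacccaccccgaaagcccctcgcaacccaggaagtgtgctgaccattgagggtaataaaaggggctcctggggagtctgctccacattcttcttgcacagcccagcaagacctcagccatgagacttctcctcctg
Cxcl2: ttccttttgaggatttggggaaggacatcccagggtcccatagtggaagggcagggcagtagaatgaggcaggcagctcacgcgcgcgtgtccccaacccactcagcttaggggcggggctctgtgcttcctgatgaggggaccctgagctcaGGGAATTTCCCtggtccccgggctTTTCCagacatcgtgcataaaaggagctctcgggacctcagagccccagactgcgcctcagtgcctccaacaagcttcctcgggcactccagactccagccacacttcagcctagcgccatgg
Cxcl10: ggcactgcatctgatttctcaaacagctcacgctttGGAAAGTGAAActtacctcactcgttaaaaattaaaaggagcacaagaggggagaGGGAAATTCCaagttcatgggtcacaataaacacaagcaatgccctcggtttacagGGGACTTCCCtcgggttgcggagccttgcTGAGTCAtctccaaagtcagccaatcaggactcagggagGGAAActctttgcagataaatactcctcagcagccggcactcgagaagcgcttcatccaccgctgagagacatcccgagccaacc

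Cxcl10 held matches to all 4 motifs. They were 2 NF-kB matches from base -159 and from base -103, 1 AP-1 match from base -74 on the opposite strand, 1 interferon response match from base -213, and 3 NFAT cores. One NFAT core overlapped the interferon response match and another the first NF-kB match. Cxcl2 held the NF-kB consensus from base -97, read on both strands of one 11-base run where a NFAT core lies too, and another NFAT core. Ccl3 held 2 NFAT cores and Xcl1 held 1, with none of the other motifs in the window. Of the 32851 promoter windows of the same length in the table, the NF-kB consensus matched in 4.51%, the AP-1 site in 5.20%, the interferon response motif in 3.44% and the NFAT core in 61.3%. Among the 8 chemokine promoters the counts were 2, 1, 1 and 6. A match is a run of letters, not a measured binding site.

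The CC chemokine genes Ccl3, Ccl4 and Ccl5 did not move as a group. Ccl3 (probe set 10389231), which codes for MIP-1 alpha, a ligand of CCR1, read 10.2 and 9.74 with PMA and ionomycin and 6.78, 6.61 and 5.26 on the unstimulated arrays. The lowest stimulated array was 7.81-fold above the highest unstimulated one. The difference was 3.74 ± 0.58 log2 units (SE), and it did not pass the test (adjusted p = 0.0808). Its spread was widest among the unstimulated arrays, where array 3 lay 1.52 log2 units below array 1.

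Ccl4 (probe set 10379721), which codes for MIP-1 beta, read 7.79 and 7.71 with PMA and ionomycin and 6.77, 6.62 and 6.56 on the unstimulated arrays. The arrays within each group lay within 0.22 log2 units of each other, and the groups did not overlap. Ccl4 rose 2.14-fold, by 1.10 ± 0.08 log2 units (SE, n = 2 and 3 arrays, adjusted p = 0.0363). The size of the change was 1.05 to 1.16 with any single array left out, but the call was lost in each of those 5 fits (adjusted p from 0.0650 without unstimulated array 3 to 0.137 without unstimulated array 2). It was also lost with robust variances (0.0514), and with replicate numbers as a block (0.167) and with unstimulated array 3 as the only one of its group (0.138).

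Ccl5 (probe set 10389207), which codes for RANTES, a ligand of CCR1 and CCR3 that T cells and NK cells are known to make, ran the other way. It read 7.19 and 7.09 with PMA and ionomycin and 9.52, 9.76 and 8.54 on the unstimulated arrays. The stimulated arrays lay within 0.10 log2 units of each other and 1.35 below the lowest unstimulated array, number 3. The difference of -2.13 ± 0.44 (SE) did not pass the test (adjusted p = 0.116). The 95% intervals of the fit, before any correction for the number of genes, ran from -3.40 to -0.87 for Ccl5, from 2.07 to 5.42 for Ccl3 and from 0.87 to 1.33 for Ccl4. Ccl3 and Ccl4 thus shared a sign, Ccl5 had the other, and the interval of Ccl3 lay wholly above that of Ccl4.

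Ccl6 (probe set 10389222), a CC chemokine that macrophages are known to make in the mouse, read 5.35 and 5.51 with PMA and ionomycin and 7.77, 7.10 and 6.91 on the unstimulated arrays. Both stimulated arrays were 1.41 log2 units or more below every unstimulated array. Its difference was -1.83 ± 0.31 (SE, adjusted p = 0.0897). Ccr1, a receptor for Ccl3, Ccl5 and Ccl6, differed by 0.38 ± 0.23 (adjusted p = 0.472) and Ccr3 by 0.34 ± 0.38 (adjusted p = 0.650), and for both the groups overlapped.

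Ccl1 (probe set 10389064), the ligand of CCR8, read 11.7 and 11.8 with PMA and ionomycin and 10.6, 11.0 and 10.6 on the unstimulated arrays. The transcript gave a high signal before any culture and stood 1.96-fold higher after it. The difference of 0.97 ± 0.14 (SE) did not pass the test (adjusted p = 0.0712). Ccr8, which codes for its receptor, read 10.3 and 10.6 with PMA and ionomycin and 10.6 to 10.7 on the unstimulated arrays, a difference of -0.16 ± 0.10 (adjusted p = 0.475). Ligand and receptor transcripts of this pair were thus both measured at high signal in the same RNA.

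Ccl17 (probe set 10574226) and Ccl22 (probe set 10574213), the 2 ligands of CCR4, did not separate the groups. Ccl17 read 5.31 and 6.08 with PMA and ionomycin and 5.73, 6.02 and 5.73 on the unstimulated arrays, with the stimulated arrays at either end of the range. Ccl22 read 5.59 and 5.60 with PMA and ionomycin and 5.20, 5.94 and 5.48 on the unstimulated arrays, so here the unstimulated arrays enclosed the stimulated ones. These values lie about the median of all probe sets, and the files give no detection calls that would tell a dim transcript from background. The differences were -0.13 ± 0.28 and 0.05 ± 0.25 (SE, adjusted p = 0.805 and 0.958). Their 95% intervals, -0.95 to 0.68 and -0.68 to 0.78, do not exclude changes of over 1.5-fold in either direction. The sign of Ccl17 turned without stimulated array 1 (0.25) and that of Ccl22 without unstimulated array 1 (-0.12). Ccr4 read 8.58 and 8.20 with PMA and ionomycin and 7.17, 7.58 and 7.05 on the unstimulated arrays. Its difference of 1.12 ± 0.23 did not pass the test (adjusted p = 0.114).

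Xcl1 (probe set 10359697) codes for lymphotactin, the C-class chemokine that lymphocytes are known to secrete and that XCR1 on cross-presenting dendritic cells recognises. It read 10.9 and 10.2 with PMA and ionomycin and 8.07, 8.30 and 7.86 on the unstimulated arrays. The lower stimulated array was 3.65-fold above the highest unstimulated one. The difference was 2.45 ± 0.28 (SE, adjusted p = 0.0582), the closest to the threshold among the genes that did not pass. Here the stimulated arrays, 0.71 log2 units apart, were further from each other than the unstimulated ones, 0.44 apart. Xcr1 differed by -0.22 ± 0.11 (adjusted p = 0.400).

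Cxcl10 (probe set 10531415), which codes for IP-10, an interferon-inducible ligand of CXCR3, read 5.83 and 5.48 with PMA and ionomycin and 8.93, 9.20 and 7.80 on the unstimulated arrays. Every unstimulated array lay at least 3.92-fold above the higher stimulated one, with unstimulated array 3 the lowest of them. The difference of -2.99 ± 0.51 (SE) did not pass the test (adjusted p = 0.0914). Cxcr3 differed by -0.61 ± 0.26 (adjusted p = 0.348). The promoter shown above with an interferon response match is that of this gene.

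Other interferon-inducible genes were set beside Cxcl10. Of 16 listed, 13 were measured, and none was called by limma (1 had an unadjusted p under 0.05). Both stimulated arrays lay below all unstimulated arrays in 7 of the 13 and above in none, against 14.0% and 18.6% of all genes. For Irf1, counted among the 7, the gap was narrow: 7.234 on the higher stimulated array and 7.236 on the lowest unstimulated one. The median difference of the 13 was -0.30. Ifit3, an interferon-induced antiviral gene, read 5.60 and 4.23 with PMA and ionomycin and 9.23, 8.88 and 5.93 on the unstimulated arrays. Ifit1 read 5.46 and 4.90 with PMA and ionomycin and 7.92, 7.29 and 5.22 on the unstimulated arrays. Unstimulated array 3 was thus low for Ifit3, Ifit1 and Cxcl10, but for Cxcl10 it stayed 1.97 log2 units above the stimulated arrays. The summed linear level of the 13 genes was 568 to 624 with PMA and ionomycin and 669 to 1657 on the unstimulated arrays. Its part in the Cxcl10 result was not tested. Cxcl9 and Cxcl11, the other ligands of CXCR3, differed by -0.43 ± 0.17 (adjusted p = 0.295) and 0.00 ± 0.01 (adjusted p = 1), and Cxcl11 read 4.97 on every array.

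**Figure D2:**
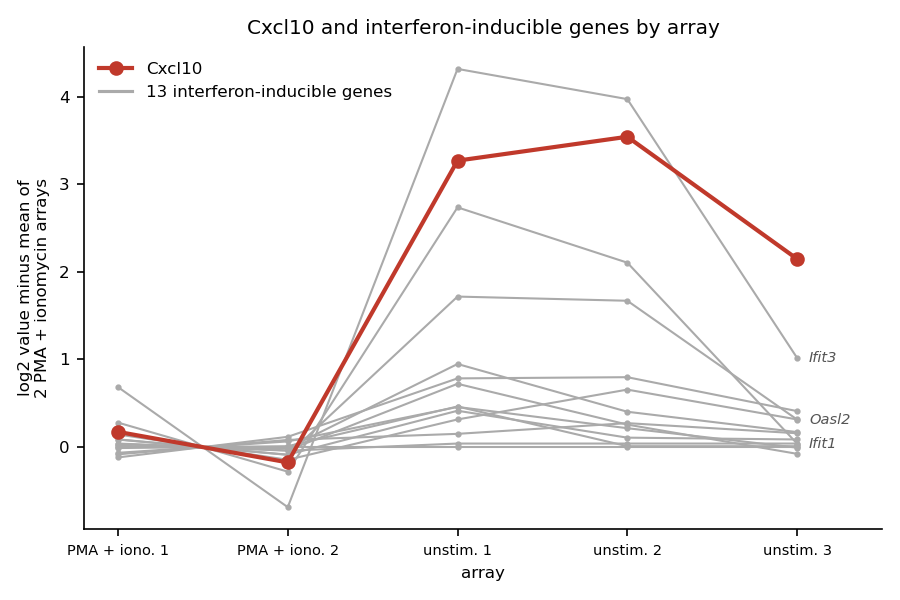
Log2 value of Cxcl10 (red) and of the 13 measured interferon-inducible genes (grey) on each array, each gene minus its mean over the 2 stimulated arrays. Cxcl10 and Ifit3 lie highest on unstimulated arrays 1 and 2, and on unstimulated array 3 Ifit1 (5.22) falls among its stimulated values while Cxcl10 (7.80) does not.

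Cxcl2 (probe set 10523156), which codes for MIP-2, a neutrophil attractant that binds CXCR2, read 10.4 and 10.6 with PMA and ionomycin and 11.0, 10.9 and 10.7 on the unstimulated arrays. The groups were separated by only 0.10 log2 units. The difference of -0.38 ± 0.13 (SE) did not pass the test (adjusted p = 0.233). The signal was high in both groups. Its 95% interval, before any correction for the number of genes, ran from -0.75 to -0.02. With any single array left out, the difference was -0.50 to -0.27 and was not called. As the test was not passed, neither a decrease nor a lack of change is shown.

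Other CXCR2 ligands, which are no part of the 10 genes, lay on either side: Cxcl3 and Cxcl5 were higher on both stimulated arrays than on any unstimulated one, and Cxcl1 and Ppbp were lower, as Cxcl2 was. Cxcl3 read 10.8 on both stimulated arrays and 9.34, 9.01 and 8.16 on the unstimulated ones (1.99 ± 0.41 SE, adjusted p = 0.118). Cxcl5 read 6.71 and 6.31 with PMA and ionomycin and 4.55, 4.32 and 5.17 on the unstimulated arrays (1.83 ± 0.32, adjusted p = 0.0946). Cxcl1 read 7.31 and 8.28 with PMA and ionomycin and 9.18, 9.06 and 8.95 on the unstimulated arrays (-1.27 ± 0.34, adjusted p = 0.170). Ppbp, which codes for a platelet chemokine, read 4.22 and 4.23 with PMA and ionomycin and 4.65, 4.77 and 4.95 on the unstimulated arrays (-0.57 ± 0.10, adjusted p = 0.0949). None of these 4 passed the test. Cxcl1, Cxcl2 and Cxcl3 are close paralogs, and probes of one may take up transcripts of another. Cxcr2, their receptor on neutrophils, differed by -0.24 ± 0.25 (adjusted p = 0.617).

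In the whole family, 26 of 27 other listed chemokine genes were measured. None was called higher or lower by limma, and their median difference was -0.02. An unadjusted p under 0.05 was found for 6 of them and for 3973 of all 19938 genes. Of these 26, 4 had both stimulated arrays above and 5 had both below all unstimulated arrays. Only Cxcl1, Cxcl3 and Cxcl5 differed by 1 log2 unit or more, against 6 of the 10 genes. Over all genes, 2.23% were higher and 2.73% lower by that much. Both lists were chosen with earlier results of these data known, so this contrast is a description and no test. The 26 genes were dimmer, with list medians of 5.26 to 5.40 by array, against 7.36 to 7.92 for the 10. The part of signal level in this contrast was not tested. Of 22 measured chemokine receptor genes, Ccrl2, which codes for a chemerin-binding receptor, fell by 4.35 log2 units (SE 0.30, adjusted p = 0.0352), and none rose. This call was lost with any single array left out, with robust variances, with the replicate block and with unstimulated array 3 as the only one of its group. Of the 22 receptors, 3 lay wholly above on the stimulated arrays and 8 wholly below. Over all genes, 18.6% lay wholly above and 14.0% wholly below, and limma called 0.737% higher and 0.963% lower.

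**Figure D3:**
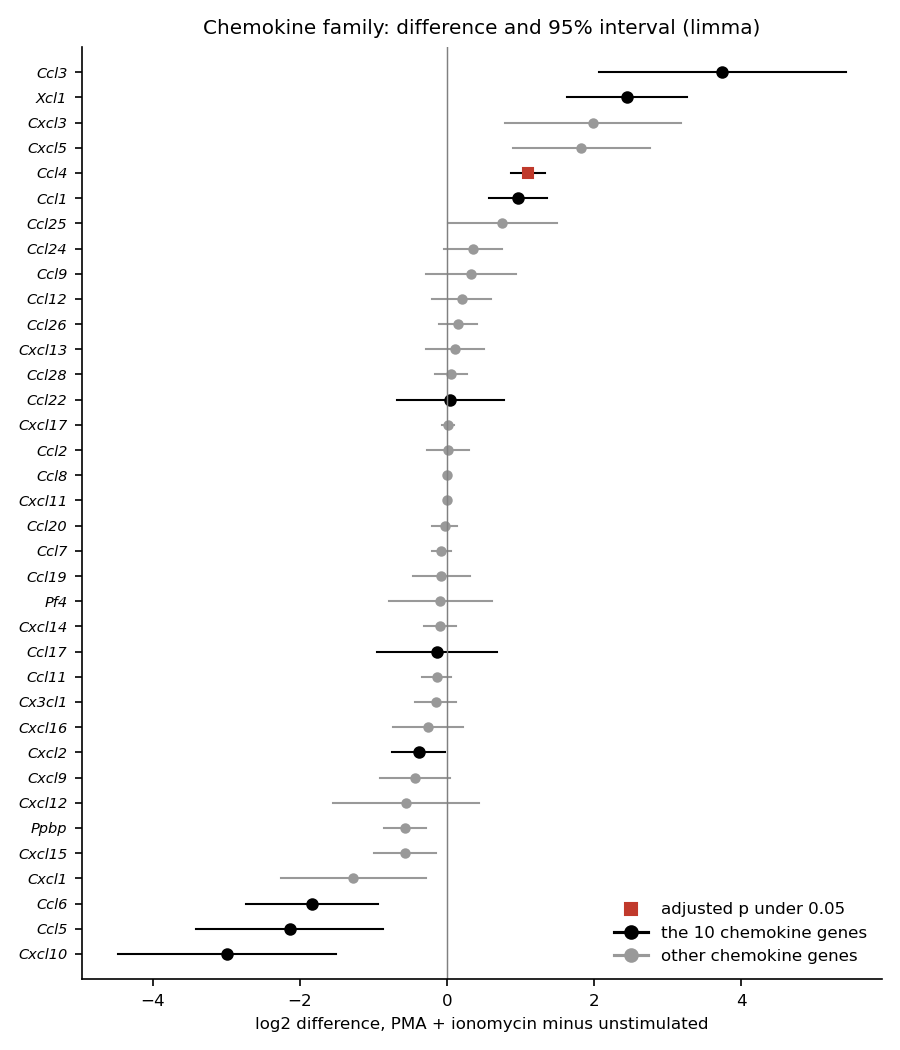
Difference in log2 expression, PMA and ionomycin minus unstimulated (horizontal axis), with the 95% interval of the limma fit for the 10 chemokine genes (black) and 26 other chemokine genes (grey); the red square marks Ccl4, with an adjusted p under 0.05. The 10 genes hold both ends of the range, from Cxcl10 at -2.99 to Ccl3 at 3.74.

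Neighbouring chemokine genes differed in the sign of their values, but of the genes in the runs below only Ccl4 passed the test. In the gene order of RefSeq assembly GRCm38.p6, which served for neighbourhood only, Ccl5, Ccl9, Ccl6, Ccl3 and Ccl4 follow each other on chromosome 11 with no other protein-coding gene between them. Along that run the differences were -2.13 for Ccl5, 0.33 for Ccl9, -1.83 for Ccl6, 3.74 for Ccl3 and 1.10 for Ccl4. Ccl9 read 6.20 and 5.58 on the stimulated arrays and 5.55 to 5.58 on the unstimulated ones, and its groups overlapped. The annotated spans of Ccl3 and Ccl4 overlap there, and each has its own probe set. Ccl1 is the last of another run on chromosome 11 after Ccl2, Ccl7, Ccl11, Ccl12 and Ccl8, whose differences lay between -0.14 and 0.20, against 0.97 for Ccl1. On chromosome 5 the run is Cxcl5, Ppbp, Pf4, Cxcl3, Cxcl15, Cxcl1 and Cxcl2, with differences of 1.83, -0.57, -0.09, 1.99, -0.57, -1.27 and -0.38. Ccl22 and Ccl17 lie on chromosome 8 with only Cx3cl1 between them, which differed by -0.15.

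**Figure D4:**
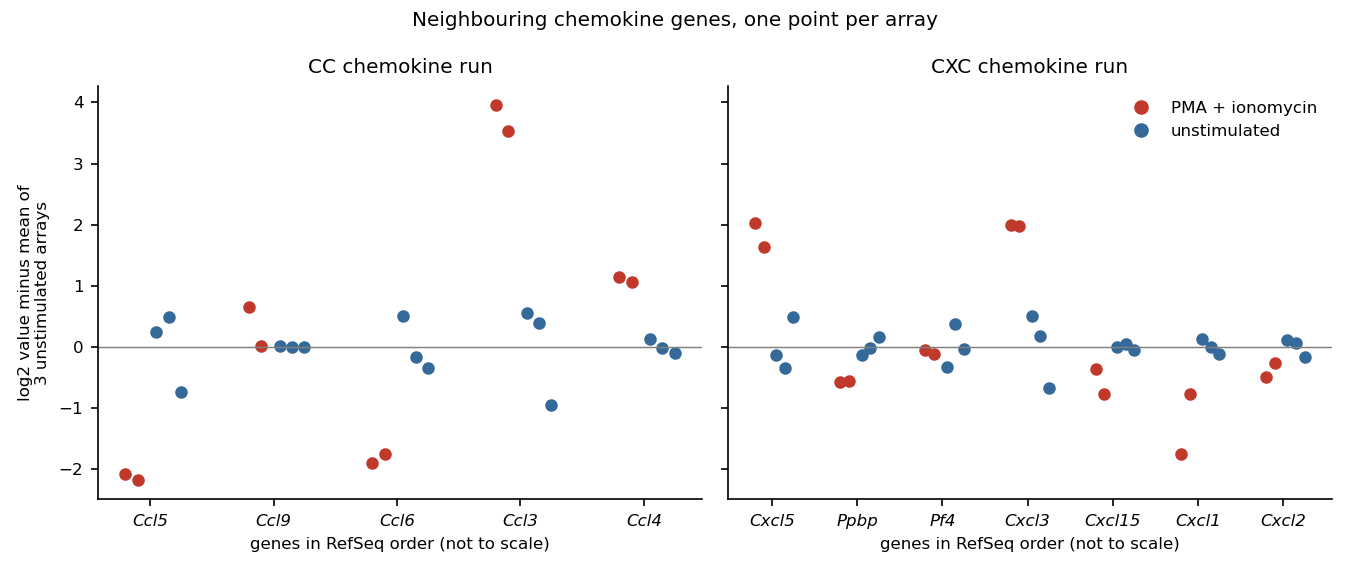
Log2 value minus the mean of the 3 unstimulated arrays (vertical axis) for genes in their order along 2 chemokine runs, one point per array, red for PMA and ionomycin and blue for unstimulated. In the left panel the red points lie below the blue ones for Ccl5 and Ccl6 and above them for Ccl3 and Ccl4; in the right panel they lie above for Cxcl5 and Cxcl3 and below for Cxcl1 and, narrowly, Cxcl2.

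A list of rapid response genes of NF-kB and AP-1 signalling, many of them known to be switched on soon after stimulation, was read on the same arrays. Of its 16 measured members, 9 fell and none rose, against 0.963% and 0.737% of all genes, and the median difference was -1.62 against 0.00 for all genes. Fosb fell by 4.80 log2 units (SE 0.06, adjusted p = 0.0105), Dusp1 fell by 3.36, Fos fell by 2.95 and Jun fell by 2.89. Egr2 ran the other way, with 10.3 on both stimulated arrays and 9.35, 9.18 and 8.68 on the unstimulated ones (1.24 ± 0.24, adjusted p = 0.104), and for Ier3 the groups overlapped. Tnf, a member of the list, differed by -0.24 ± 0.11 (adjusted p = 0.368).

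Transcripts known from other lung and blood cells were read on the same arrays, and limma called no marker of the 4 lists given here. Over all genes, 14.0% lay wholly below and 18.6% wholly above. Of 9 measured macrophage and monocyte markers, 5 lay wholly below on the stimulated arrays and none above, with a summed linear level of 366 to 480 against 588 to 1026 on the unstimulated arrays. Lyz2 (lysozyme) read 4.11 and 3.98 with PMA and ionomycin and 7.88, 7.50 and 6.49 on the unstimulated arrays. Csf1r read 4.60 to 4.75 on all 5 arrays. Marco, 1 of the 5 markers counted as wholly below, read 4.87 to 4.89 on all arrays and differed by only -0.03. Of 8 neutrophil markers, 4 lay wholly below and 1 above, with summed levels of 213 on both stimulated arrays against 346 to 1296. The 8 T cell markers summed to 1745 to 2070 with PMA and ionomycin and to 1789 to 3004 on the unstimulated arrays, with 2 wholly below and 1 above. The 8 NK cell markers summed to 242 to 385 with PMA and ionomycin and to 266 to 526 on the unstimulated arrays, with none wholly below and 1 above. The part of such cells in the lower values of Ccl5, Ccl6 and Cxcl10 was not tested.

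Unstimulated array 3 lay below the other 2 unstimulated arrays for 8 of the 10 chemokine genes and above both for none, whereas 23.1% of all genes had it lowest. Within the unstimulated group, the summed levels of the 4 marker lists above were also lowest on that array. Without it, the differences were 3.27 for Ccl3, -2.50 for Ccl5, -2.01 for Ccl6 and -3.40 for Cxcl10. With it as the lone unstimulated array, they were 4.70 for Ccl3, -1.40 for Ccl5, -1.48 for Ccl6 and -2.15 for Cxcl10, and limma called none of the 10 genes.

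Genes with array profiles most like those of the chemokine genes were found as the nearest in Euclidean distance over the 5 arrays, each gene centred on its own mean. This was done for the 7 genes with a range of 1 log2 unit or more, and it describes likeness over 5 arrays only. Penk (proenkephalin, distance 0.93) and the inhibitory receptor gene Tigit (0.94) were nearest to Ccl3. Penk and Tigit passed the test, as did AW209491, named below. The nearest genes were picked by these same array values, so their calls are no separate support for the chemokine genes. The hepcidin gene Hamp (0.52) and Il10 (0.55) were nearest to Xcl1. Slc1a5 (0.05), which codes for a glutamine transporter, and Ubfd1 (0.08) were nearest to Ccl1, and AW209491 (0.08) and Cystm1 (0.12) to Ccl4. Dusp10 (0.33), a MAP kinase phosphatase, and Cpm (0.34), which codes for carboxypeptidase M, were nearest to Ccl5, and Taf4b (0.32) and Raver2 (0.34) to Ccl6. Lyz2 (0.57), one of the macrophage markers above, and Gadd45b (0.57) were nearest to Cxcl10.

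The call depended on the setting more than the direction did. When genes dimmer than the median of all probe sets were left out before the test, limma called Ccl1, Ccl3, Ccl4 and Xcl1 higher and Ccl5, Ccl6 and Cxcl10 lower. Centring each array on its median called the same genes except Ccl5, as did quantile normalization. Calls over all genes rose as well: 147 higher and 192 lower as reported, and 824 and 716 with the filter. They were 660 and 526 after centring, and 825 and 729 after quantile normalization. The share of higher calls among all calls was 55.6% after centring and 53.1% after quantile normalization, against 43.4% as reported. Xcl1, for instance, had adjusted p = 0.0210 with the filter, 0.0252 after centring and 0.317 with unstimulated array 3 alone. Ccl17, Ccl22 and Cxcl2 were not called under any setting tried.

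**Figure D5:**
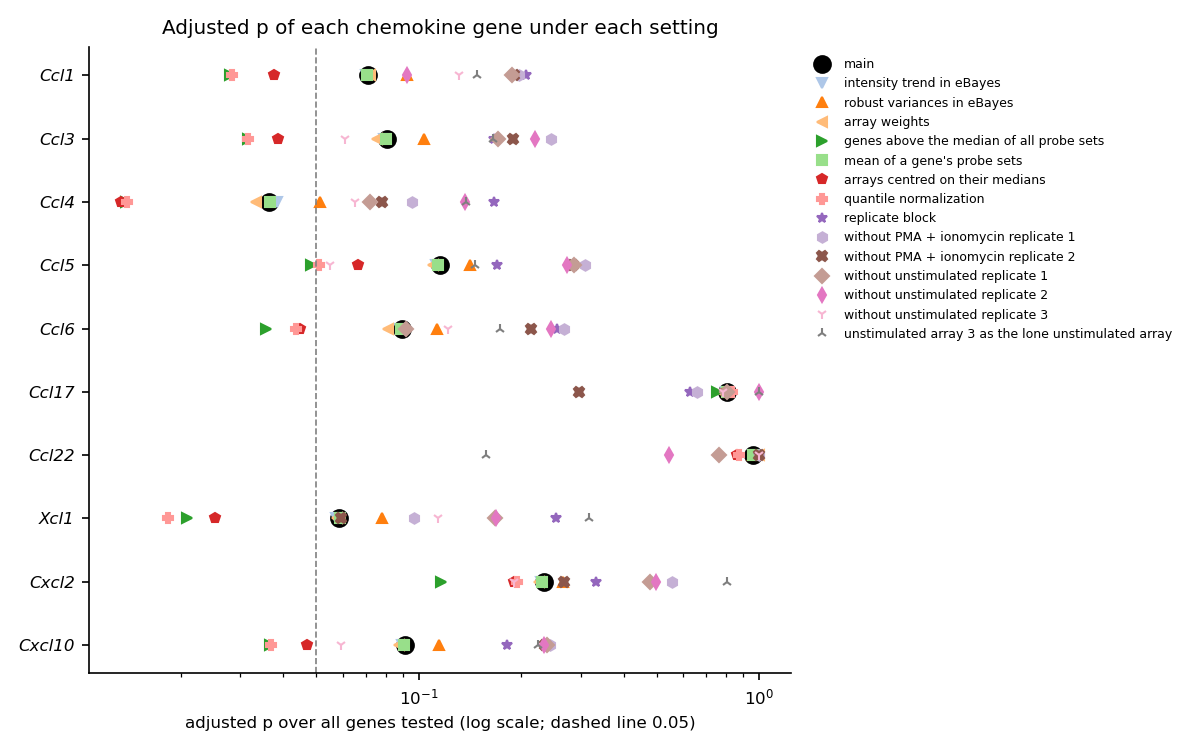
Adjusted p over the genes tested (horizontal log axis) for each of the 10 chemokine genes under the setting reported here (large black circle) and under each alternative (other symbols); the dashed line is 0.05. Only for Ccl4 does the black circle lie left of the line, while Ccl17, Ccl22 and Cxcl2 have all symbols to its right.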

How the data were processed

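The authors deposited log2 expression values, and the submitters' processing notes name RMA, robust multi-array averaging, as their source. Its version, the software, the genome build and the arrays normalized together are not given in the sources used here. Labelled RNA was made from 6 micrograms of total RNA per sample for a 1-colour Affymetrix array, per the labels' protocols. Groups and replicate numbers came from the sample titles. Of 35556 probe sets, 21789 had 1 gene symbol, 1621 had several and 12146 had no entry in the annotation given. For 999 genes with several probe sets the one with the highest mean was used.

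The comparison used lmFit and eBayes of limma 3.58.1 (R 4.3.3), with no filter, on the log2 scale as PMA and ionomycin minus unstimulated. A permutation test of these 5 arrays has 10 splits and cannot go below 0.1, so none is reported. The number of arrays limits the precision. The members and lists were chosen with earlier results of these data known. Named were all 10 genes, other chemokines with a call or a difference of 1, receptors of the 10 genes, called receptors, up to 4 called genes of the interferon and rapid response lists, and the 2 nearest genes per profile, without predicted genes. Ifit1, Ifit3, Irf1, Lyz2, Csf1r, Marco, Tnf, Egr2, Ier3, Ppbp and lineage genes were named after their values were seen. Summed levels are sums of 2 to the power of the log2 value.

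Alternatives were trend or robust variances, array weights, a filter, mean probe sets, 2 normalizations, a replicate block, a threshold of 0.1 and leaving out each array. The fit with unstimulated array 3 alone was added after seeing the data. The test was checked on simulated data with 200 changed genes among 19938 in each of 10 draws. It recovered 69.6% of changes of 1 log2 unit and 90.4% of changes of 2. The simulated noise was normal, and each gene received the spread of a randomly drawn gene. These shares therefore do not give the power of the test for the 10 chemokine genes. Of those, Ccl3 differed by 3.74 in the data and was not called. Plots used matplotlib 3.10.9 in Python 3.11.15.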

Additional observations from a re-analysis of the deposited data

How the results depend on the processing

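The 10 genes kept their signs under all alternatives, except Ccl17 without stimulated array 1 (0.25; -0.52 to 0.25 over the arrays left out) and Ccl22 without unstimulated array 1 (-0.12; -0.12 to 0.25). Calls moved more, and the cause was not tested. Counts are given for all genes, the 10 chemokine genes, other chemokines and receptors, higher and then lower, where they moved by over 1.5 times. Robust variances gave 45 and 66 genes, 0 of the 10 higher and 0 receptors lower. The filter for genes above the median gave 824 and 716 genes, 4 and 3 of the 10, 1 other chemokine higher, and 1 and 3 receptors. Median centring gave 660 and 526 genes, 4 and 2 of the 10, 1 other chemokine higher and 3 receptors lower. Quantile normalization gave 825 and 729 genes, 4 and 2 of the 10, 1 and 1 other chemokines, and 1 and 3 receptors. The threshold of 0.1 gave 755 and 695 genes, 4 and 2 of the 10, 1 and 1 other chemokines and 3 receptors lower. With array 3 standing alone for the unstimulated group, limma called 0 genes higher and 0 lower.

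Leaving out one array at a time gave 0 to 361 genes higher and 0 to 413 lower, 0 of the 10 in each direction, 0 to 1 other chemokines higher and 0 to 1 lower, 0 receptors higher and 0 to 2 lower (Ccr8 and Cxcr4, never Ccrl2). The lowest counts came without unstimulated array 2 and the highest without stimulated array 2; the lone array of a group was assumed to vary like the others. Ccl22 was too dim to be tested with the filter.

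With the replicate number as a block, limma called 0 genes higher and 0 lower, 0 of the 10 and 0 receptors lower. The labels do not say that equal numbers mark shared mice or days, and deviations of same-numbered arrays from their group means correlated at -0.14 and -0.06 across genes. The samples share only a number, and 1 residual degree of freedom remains.

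With 5 arrays and no detection calls, low signals such as those of Ccl17 and Ccl22 cannot be told from background, and the unadjusted p was under 0.05 for 8 of the 10 genes.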

Other observations

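Markers of further cell types were read on the same arrays, and limma called none of them. Among all genes, 14.0% lay wholly below on the stimulated arrays and 18.6% wholly above. Of 10 dendritic cell markers, 2 lay wholly below on the stimulated arrays, with a summed linear level of 428 to 454 with PMA and ionomycin and 487 to 1151 on the unstimulated arrays. Of 8 epithelial markers, 4 lay wholly below, with sums of 551 to 668 with PMA and ionomycin and 837 to 3132 on the unstimulated arrays. Of 6 endothelial markers, 5 lay wholly below, with sums of 366 to 428 with PMA and ionomycin and 523 to 1896 on the unstimulated arrays. The sums of these 3 lists were lowest on array 3 within the unstimulated group, as Cxcl10 and Ccl5 were. Of 8 mast cell and basophil markers 2 lay wholly below, of 6 fibroblast markers 1, of 5 measured B cell markers 1 and of 4 measured eosinophil markers 0, and none of these 7 lists had a marker wholly above. The part of such cells in the chemokine values was not tested.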
